A study of Mus musculus with 5 samples.

Results

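Transcripts of 9 genes from 4 families of RNA-binding translation regulators found in neuronal RNA granules were followed: the CPEB genes Cpeb1, Cpeb2, Cpeb3 and Cpeb4, the FMRP family genes Fmr1, Fxr1 and Fxr2, the Pumilio gene Pum2 and the Staufen gene Stau1. The members were all probe sets that the array's annotation assigns to 1 of these 9 symbols, which gave 26 of the 45101 probe sets, or 9 of 18193 named genes. Of these, 22 passed a filter on low signal and 4 did not. The filter used the mean log2 signal over all 5 arrays, so a probe set with high signal on only some arrays could pass. The members were chosen by gene symbol, with earlier results of these data known.

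The values describe the transcripts of these genes, not their proteins. RNA from mouse brain was offered in vitro to the protein MA-Brent-1, which belongs to the REF/Aly mRNA export factors, and the RNA that bound was measured on Affymetrix expression arrays. On 2 arrays the RNA came from the deiminated protein, in which arginine had been converted to citrulline. On 2 arrays it came from the non-deiminated protein, and 1 array held the initial brain RNA without any binding step, called input here. In each bound group the title of 1 array names MA-Brent-1 and that of the other names REFP2, 1 title speaks of a biological repeat, and no strain, age or genotype was given in the sources used here. All p-values therefore measure the spread between these arrays, which may be technical.

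Neurons store many mRNAs in granules that travel along dendrites and axons and release them for local protein synthesis. CPEB proteins bind a U-rich element in the 3' end of mRNAs and control the length of the poly(A) tail. FMRP, the product of Fmr1 and the protein missing in fragile X syndrome, represses translation at synapses, and Fxr1 and Fxr2 encode its autosomal relatives. Pumilio proteins bind a short sequence element and repress or destabilise their targets, and Staufen proteins bind base-paired RNA and take part in its transport into dendrites.

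Each value is a MAS5 signal intensity, and every array had been scaled to a common trimmed mean. The median signal over the non-control probe sets was 29.8 to 41.4 on the bound arrays and 102.0 on the input array. The mean log2 signal of the hybridisation controls, which are added in fixed amounts, was 10.1 to 13.0 on the bound arrays and 17.0 on the input array. The ratio of 3' to 5' signal for beta-actin was 29.8 to 55.6 on the bound arrays and 234 on the input array, and for Gapdh it was 17.4 to 31.9 and 2.71. Across probe sets, Pearson's r ran from 0.897 to 0.971 between bound arrays and from 0.321 to 0.390 between a bound array and the input array. The part of these array differences in the values below was not tested. All 6 neuron markers (Snap25, Syt1, Tubb3, Rbfox3, Nefl and Stmn2) passed the filter, and their summed signal was 13391 to 16000 on the bound arrays and 3072 on the input array. Astrocyte markers summed to 10404 to 16046 on the bound arrays and 5408 on the input array, and oligodendrocyte markers to 18219 to 62987 and 48076. Mbp and Cnp gave most of the oligodendrocyte sum, and their bound arrays lay on both sides of input. Mag read 278 to 551 on the bound arrays and 17.9 on input, and Mog 178 to 238 and 28.8. Markers of other organs (Alb, Ins2, Myh6, Myh4, Umod and Sftpc, of which 3 passed the filter) summed to 87.4 to 197 on the bound arrays and to 972 on the input array.

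**Figure D1:**
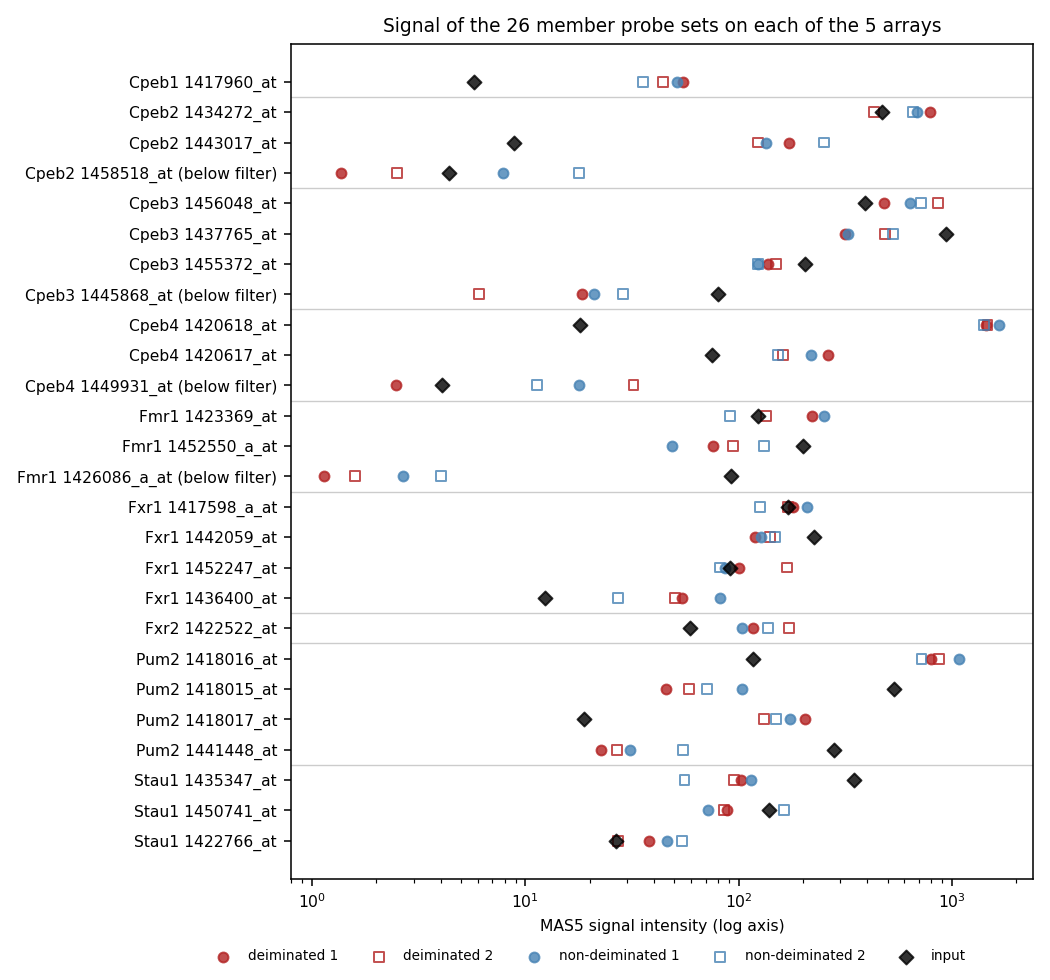
MAS5 signal intensity on a log axis for each of the 26 member probe sets, with 1 point per array: red for deiminated, blue for non-deiminated, circles for replicate 1, squares for replicate 2 and black diamonds for input. For Cpeb4 1420618_at and Pum2 1418016_at the 4 bound arrays lie together far above the input array, while for Pum2 1418015_at and 1441448_at they lie below it.

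The first comparison asked whether deimination of the protein changed which of these transcripts it bound. No member passed the test: limma called 0 of the 22 member probe sets, as it called 0 of all 27022 (0%), where called means a Benjamini-Hochberg adjusted p under 0.05. At an unadjusted p under 0.05 there were 0 of these 22 member probe sets and 356 of all (1.32%). The member differences, in log2(signal + 4.18) of deiminated minus non-deiminated, ran from -0.69 to 0.61. Their median was -0.02 with 11 positive and 11 negative, beside a median of -0.01 over all probe sets.

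Cpeb4, whose protein holds back or activates translation by binding the cytoplasmic polyadenylation element, gave the narrowest interval. On probe set 1420618_at its signal was 1449 and 1470 with the deiminated protein against 1673 and 1414 without deimination. The groups overlapped, and the log2 difference was -0.08 ± 0.30 (limma SE, n = 2 and 2; 95% interval -0.72 to 0.57; adjusted p = 0.9999). Pum2 1418016_at read 801 and 870 with the deiminated protein and 1081 and 721 with the non-deiminated protein. Its groups overlapped as well, with a difference of -0.08 (-0.77 to 0.61).

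The FMRP family had wider intervals. Fmr1 1423369_at read 222 and 134 with the deiminated protein against 251 and 90.7 without deimination, so that the spread within each group exceeded the difference between them, 0.19 (-0.86 to 1.23). Fmr1 1452550_a_at read 76.1 and 94.1 against 48.5 and 132, with a difference of 0.07 (-1.03 to 1.17). Fxr2 1422522_at read 117 and 172 against 104 and 137, with a difference of 0.24 (-0.68 to 1.17). The groups overlapped for each of these probe sets.

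The groups did not overlap for 5 of the 22 member probe sets (22.7%), close to the 24.1% of all kept probe sets. Fxr1 1452247_at had the highest difference, with 101 and 168 on the deiminated arrays against 86.5 and 81.9 (0.61, -0.35 to 1.57). Cpeb3 1455372_at was the other one with more signal on the deiminated arrays, 137 and 150 against 124 and 124. In the other direction, Pum2 1418015_at had the lowest difference, with 45.7 and 58.6 against 103 and 71.2 (-0.69, -1.63 to 0.26). Pum2 1441448_at read 22.5 and 26.8 against 30.9 and 54.8, and Stau1 1422766_at read 38.0 and 27.2 against 46.3 and 54.4. None of these differences passed, each with adjusted p = 0.9999.

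The arrays titled MA-Brent-1 and those titled REFP2 each held 1 deiminated and 1 non-deiminated sample. The difference within the MA-Brent-1 arrays and that within the REFP2 arrays had opposite signs for 16 of the 22 member probe sets. For Fmr1 1423369_at they were 1.25 and -0.88, and for Fmr1 1452550_a_at they were -0.76 and 0.90. The share of opposite signs over all kept probe sets was not computed. In the MA-Brent-1 pair the deiminated array had the lower hybridisation controls (10.6 against 13.0), and in the REFP2 pair the higher (12.6 against 10.1). Deimination and hybridisation level therefore cannot be told apart within either pair. Whether the opposite signs go with the protein name or with hybridisation level cannot be told either. With the protein name as a block, 0 member probe sets were called. Bound arrays with higher hybridisation controls, replicate 2 of each group, had more signal for 10 of the 22 member probe sets, against 56.6% of all kept probe sets.

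**Figure D2:**
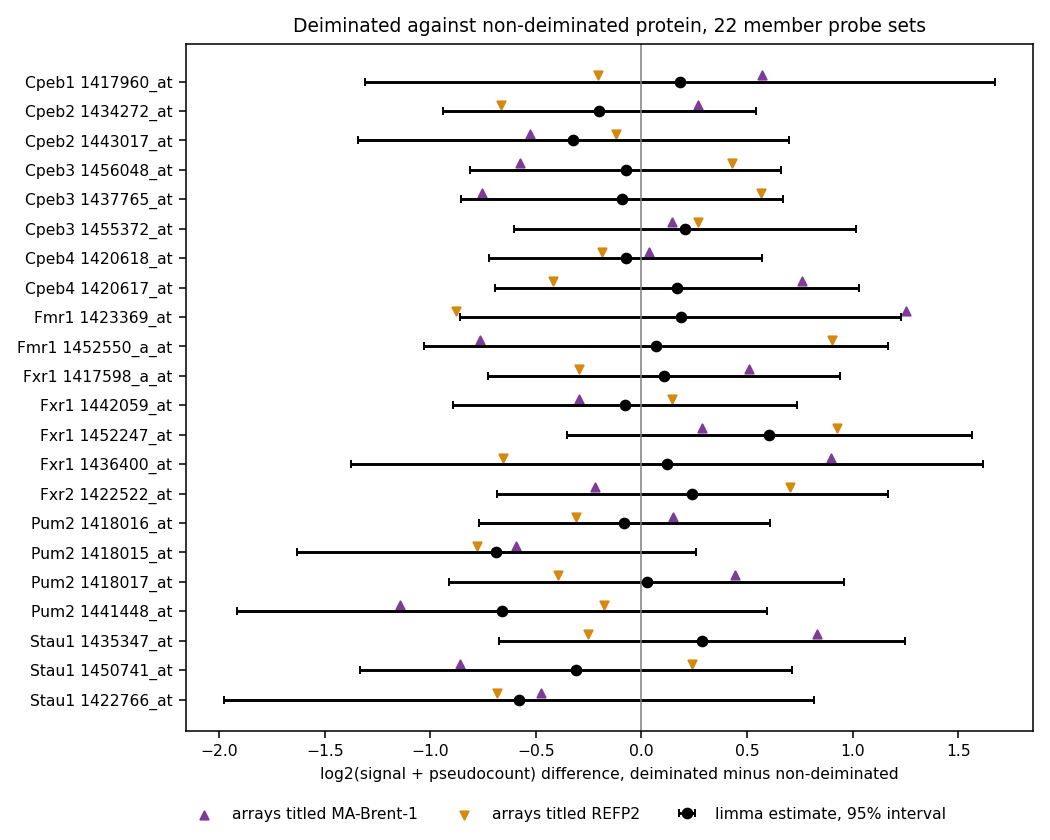
Difference in log2(signal + pseudocount) between deiminated and non-deiminated protein for the 22 member probe sets that passed the filter. Black points are limma estimates with 95% intervals, and triangles are the differences within the arrays titled MA-Brent-1 (pointing up) and REFP2 (pointing down). All 22 intervals include 0. For 16 probe sets the triangles lie on opposite sides of it, and the share over all kept probe sets was not computed.

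The 95% interval lay within 2-fold in both directions for 8 of the 22 member probe sets and within 4-fold for 22, beside 24.2% and 83.9% of all probe sets. That limit did not hold under all alternatives. When 1 bound array was omitted, 16 to 20 of the 22 intervals lay within 4-fold. It was 20 with the protein name as a block, with the pseudocount 4 times smaller and with no filter. With the bound arrays alone it was 21, and after hybridisation control scaling 0. Without 1 of the 4 bound arrays the sign of many of these small differences turned, and no member probe set was called in any of those fits.

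The remaining comparisons asked which of the transcripts had more or less signal in the bound RNA than in the initial brain RNA. Both use the same 1 input array, so they are not separate evidence, and the fit takes that lone array to vary as the bound ones do. Under the authors' scaling, limma called 6 member probe sets higher and 4 lower with the deiminated protein, and again 6 higher and 4 lower with the non-deiminated protein. All 10 were called in both comparisons, in the same direction. They are 45.5% of the members, beside 51.5% and 50.5% of all probe sets called. The 6 higher are 27.3% of the members, beside 24.9% of all probe sets for the deiminated and 24.7% for the non-deiminated protein. Of these, Cpeb1 1417960_at, Cpeb2 1443017_at, Cpeb4 1420618_at and Pum2 1418017_at had input signal under the filter cut. They passed the filter only through the bound arrays, so their higher calls are not independent of it. The 4 lower are 18.2%, beside 26.6% and 25.7%. These shares are near the background, and the median member differences of 0.39 and 0.40 stood beside -0.21 and -0.19 over all probe sets. The split depended on the scaling, with 10 and 11 higher and 4 and 4 lower after quantile normalisation, and 11 and 11 higher and 2 and 0 lower after median centring. Over all probe sets the share called higher was 36.8% and 36.3% after quantile normalisation and 44.8% and 43.4% after median centring, and the share called lower was 19.5% and 19.2%, then 4.83% and 4.54%. Scaled to the hybridisation controls, 0 of 27022 probe sets were called in either comparison, with 7110 and 7309 at an unadjusted p under 0.05. That scaling put the median difference over all probe sets at 4.31 and 4.38, quantile normalisation at 0.51 and 0.48, and median centring at 1.29 and 1.23.

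Of the 8 CPEB probe sets that passed the filter, 4 were called higher and 1 lower with each protein (50% and 12.5%). Over all probe sets 24.9% and 24.7% were called higher and 26.6% and 25.7% lower. Cpeb4 1420618_at and 1420617_at, both called higher, come from the same sequence record. Cpeb4 1420618_at stood furthest apart, with 1414 to 1673 on the bound arrays against 18.1 on the input array. All 4 bound arrays lay above input, and the differences were 6.04 ± 0.37 for the deiminated protein (adjusted p = 7.3e-07) and 6.11 ± 0.37 for the non-deiminated protein (adjusted p = 8.1e-07), which are 65.7-fold and 69.2-fold on the pseudocount scale. Over the alternatives other than hybridisation control scaling, the first ran from 5.41 to 7.53, and its exact size depends on the low input signal. Hybridisation control scaling gave 9.25 and 9.36, with adjusted p = 0.171 and 0.176. Cpeb4 1420617_at read 153 to 263 on the bound arrays against 75.3 on input, with 1.41 ± 0.49 and 1.24 ± 0.49 (adjusted p = 0.0294 and 0.0499). That call was close to the threshold, and with the non-deiminated protein only 4 of 11 alternatives kept it. It was lost without deiminated replicate 1 for both proteins (1.06 and 1.24, adjusted p = 0.233 and 0.0863) and for both without the variance trend (adjusted p = 0.0720 and 0.103). With the non-deiminated protein it was also lost without deiminated replicate 2 (adjusted p = 0.0705) and without non-deiminated replicate 1 (0.99, adjusted p = 0.120).

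Cpeb2 and Cpeb1 had 1 higher call each. Cpeb2 1443017_at read 123 to 251 on the bound arrays and 8.84 on input. Its differences of 3.53 ± 0.58 and 3.85 ± 0.58 (adjusted p = 0.00046 and 0.00025) kept their call under all 11 alternatives other than hybridisation control scaling. Cpeb1, the founding member of the family that drives cytoplasmic polyadenylation in oocytes and neurons, has 1 probe set, 1417960_at. It read 55.0 and 44.0 with the deiminated protein, 51.5 and 35.7 with the non-deiminated one and 5.73 on input, where only 2.6% of the non-control probe sets read as low or lower. The differences were 2.43 ± 0.85 and 2.25 ± 0.85 (adjusted p = 0.0294 and 0.0413). The call was lost without deiminated replicate 1 (2.28 and 2.25, adjusted p = 0.158 and 0.0881) and without deiminated replicate 2 (2.58 and 2.25, adjusted p = 0.0930 and 0.0823). With the non-deiminated protein it was also lost without non-deiminated replicate 1 (2.01) and in the fit with no filter (2.25).

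The other probe sets of these genes read differently. Cpeb2 1434272_at read 432 to 793 on the bound arrays and 470 on input, so the bound arrays lay on both sides of it. Its differences of 0.32 (-0.59 to 1.22) and 0.51 (-0.39 to 1.42) did not pass; they passed higher after median centring (1.81 and 1.93, adjusted p = 0.0259 and 0.02005) and turned to -0.39 and -0.20 after quantile normalisation. Cpeb3, whose protein restrains synaptic translation and is tied to memory maintenance in mice, had a probe set in each direction. Cpeb3 1456048_at read 479 to 857 on the bound arrays and 392 on input, which did not pass (0.70 and 0.78) except after median centring (2.20 and 2.19, adjusted p = 0.0046 and 0.0048). Cpeb3 1437765_at read 314 to 532 against 937, which was called lower at -1.26 ± 0.43 and -1.16 ± 0.43 (adjusted p = 0.0280 and 0.0391), but turned to 0.24 and 0.25 after median centring and to 4.06 and 4.19 after hybridisation control scaling, without a call. That call was also lost without deiminated replicate 1 for the deiminated protein (-0.95, adjusted p = 0.181) and without non-deiminated replicate 1 for the non-deiminated protein (-0.81, adjusted p = 0.0972), and for both proteins without the variance trend (adjusted p = 0.106 and 0.129). Cpeb3 1455372_at read 124 to 150 against 206 and did not pass.

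In the FMRP family 0 of the 7 probe sets that passed the filter were called against input with either protein under the authors' scaling. Over all probe sets 51.5% and 50.5% were called. Fmr1 1423369_at read 124 on input, inside the range of 90.7 to 251 on the bound arrays (0.47, -0.81 to 1.75, and 0.28, -0.998 to 1.56), and it passed only after quantile normalisation (1.75 and 1.53, adjusted p = 0.0249 and 0.0437). Fmr1 1452550_a_at read 201 on input and 48.5 to 132 on the bound arrays, all below it, with -1.21 (adjusted p = 0.117) and -1.28 (adjusted p = 0.100). Without non-deiminated replicate 2 it passed at -1.21 (adjusted p = 0.0457) and -1.97 (adjusted p = 0.0079), and without non-deiminated replicate 1 it passed for the deiminated protein (adjusted p = 0.0343). Its sign turned to 0.28 and 0.14 after median centring and to 3.72 and 3.67 after hybridisation control scaling. Fxr2 1422522_at read 104 to 172 on the bound arrays against 59.4 on input, all above it, with 1.20 (0.07 to 2.34, adjusted p = 0.0699) and 0.96 (-0.17 to 2.09, adjusted p = 0.139). It passed after quantile normalisation, at 2.40 (adjusted p = 0.0014) and 2.17 (adjusted p = 0.0026), and after median centring, at 2.70 and 2.38. Leaving out non-deiminated replicate 1 or 2 also brought it past the threshold for the deiminated protein (adjusted p = 0.0406 and 0.0388).

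Fxr1 had 4 probe sets that passed the filter, none of them called under the authors' scaling with all arrays. Fxr1 1417598_a_at read 171 on input and 126 to 210 on the bound arrays, which lay on both sides of it (0.03 and -0.07). Fxr1 1442059_at read 119 to 147 against 225, and Fxr1 1452247_at read 81.9 to 168 against 90.8. Fxr1 1436400_at read 27.1 to 81.8 against 12.3, all above input, at 1.78 (-0.06 to 3.61, adjusted p = 0.0941) and 1.65 (-0.18 to 3.49, adjusted p = 0.117). Without non-deiminated replicate 2 it passed at 1.78 and 2.38 (adjusted p = 0.0335 and 0.0168), and it also passed after quantile normalisation (3.02 and 2.73) and median centring (3.27 and 3.07). The sign of several of these differences depended on the scaling, as for Fxr1 1452247_at with the non-deiminated protein, at -0.10 as deposited, 1.24 after quantile normalisation, 1.31 after median centring and 4.45 after hybridisation control scaling. Fxr1 1452247_at passed after quantile normalisation with both proteins (1.83 and 1.24, adjusted p = 0.0081 and 0.0468), and after median centring with the deiminated protein (1.997, adjusted p = 0.0108) but not with the non-deiminated one (adjusted p = 0.0666).

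**Figure D3:**
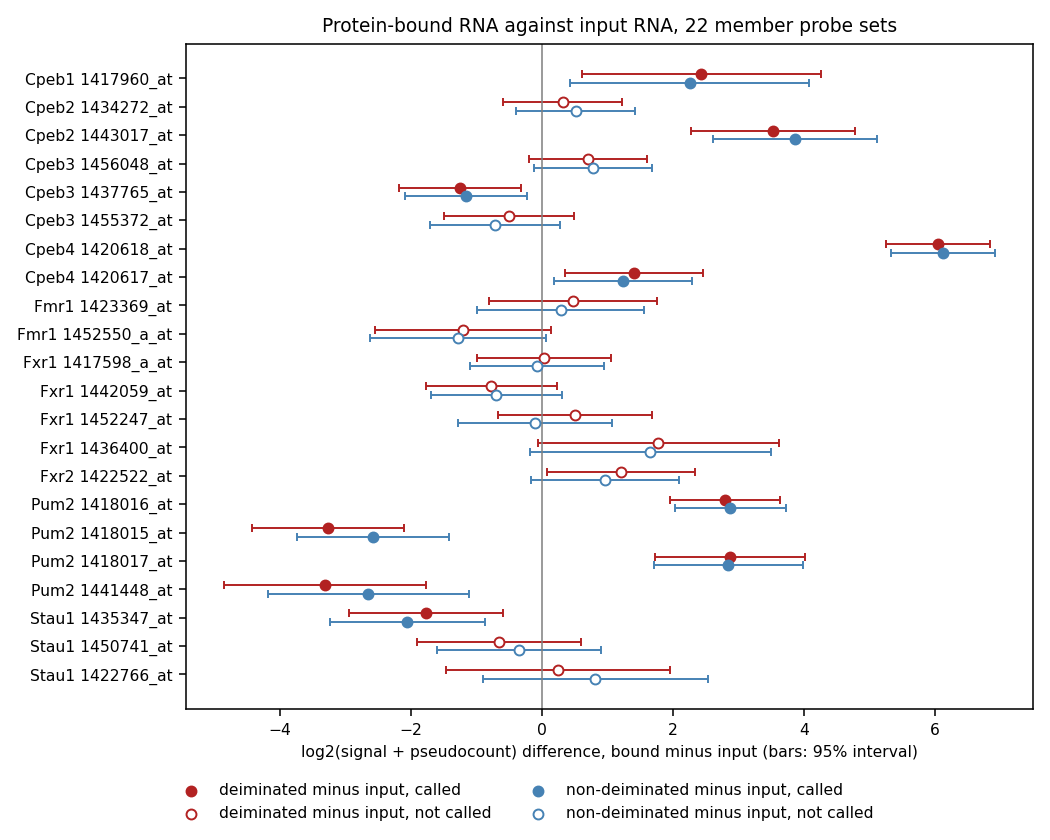
Difference in log2(signal + pseudocount) between bound and input RNA for the 22 member probe sets under the authors' scaling, red for the deiminated and blue for the non-deiminated protein, with 95% intervals; filled points passed the adjusted p threshold. Cpeb4 1420618_at lies at 6.04 and 6.11 and the Pum2 probe sets lie on both sides of 0, although the lower ones turned sign after hybridisation control scaling.

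Pum2 was the member whose probe sets split most widely. It was called in both directions, the only one of the 9 genes for which this held under the authors' scaling, with 2 probe sets higher and 2 lower in each comparison. Pum2 1418016_at read 721 to 1081 on the bound arrays and 117 on input, at 2.79 ± 0.39 and 2.87 ± 0.39 (adjusted p = 0.000146 and 0.000123). Pum2 1418017_at read 132 to 205 against 18.9, at 2.87 ± 0.53 and 2.84 ± 0.53 (adjusted p = 0.00106 and 0.00117). Both kept their higher call under all 11 alternatives other than hybridisation control scaling.

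In the other direction, Pum2 1418015_at read 45.7 to 103 on the bound arrays against 534 on input, at -3.27 ± 0.54 and -2.58 ± 0.54 (adjusted p = 0.00046 and 0.0023). Pum2 1441448_at read 22.5 to 54.8 against 282, at -3.31 ± 0.71 and -2.65 ± 0.71 (adjusted p = 0.0027 and 0.0093). With the non-deiminated protein both lost their call after median centring (-1.16 and -1.23), and after hybridisation control scaling they turned to 1.92 and 1.67 with the deiminated and to 2.68 and 2.40 with the non-deiminated protein. The annotation lists the same sequence record for 1418015_at, 1418016_at and 1418017_at, so these 3 probe sets with opposite differences stand for 1 source sequence. For Cpeb4 3 probe sets also share a record, and for Stau1 2 do. No level for the Pum2 transcript against input follows from these probe sets.

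Stau1, whose protein carries mRNAs into dendrites and also triggers the decay of some of them, was called lower on 1 of 3 probe sets. Stau1 1435347_at read 102 and 95.3 with the deiminated protein, 115 and 55.8 with the non-deiminated one and 347 on input, all bound arrays below it. The differences were -1.77 ± 0.55 and -2.06 ± 0.55 (adjusted p = 0.0174 and 0.0089). The first was lost without deiminated replicate 2 (-1.72, adjusted p = 0.0502), both were lost after median centring (-0.27 and -0.64), and both turned to 3.35 and 3.11 after hybridisation control scaling. Stau1 1450741_at read 71.9 to 163 against 140, and Stau1 1422766_at read 27.2 to 54.4 against 26.7; neither passed under the authors' scaling. With the non-deiminated protein Stau1 1422766_at passed higher after quantile normalisation (1.89, adjusted p = 0.0470) and after median centring (2.23, adjusted p = 0.0268).

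The position of a probe set among the 45037 non-control probe sets of its own array does not depend on a common scaling factor. For 14 of the 22 member probe sets this percentile was higher on all 4 bound arrays than on the input array, which is 63.6% beside 50.4% of all kept probe sets. For 5 it was lower on all 4, which is 22.7% beside 34.5%, and for 3 the arrays were mixed. Cpeb4 1420618_at went from the 19.5 percentile on input to 96.3 to 96.9 on the bound arrays, and Pum2 1418016_at from 52.8 to 93.5 to 95.1. Fxr2 1422522_at went from 39.2 to 71.9 to 78.8. Pum2 1418015_at went from 94.9 to 58.4 to 71.8, and Stau1 1435347_at from 88.7 to 57.4 to 73.4. By signal itself, 10 of the 22 lay above input on all 4 bound arrays (45.5%, beside 39.1% of all) and 7 below (31.8%, beside 45.6%).

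**Figure D4:**
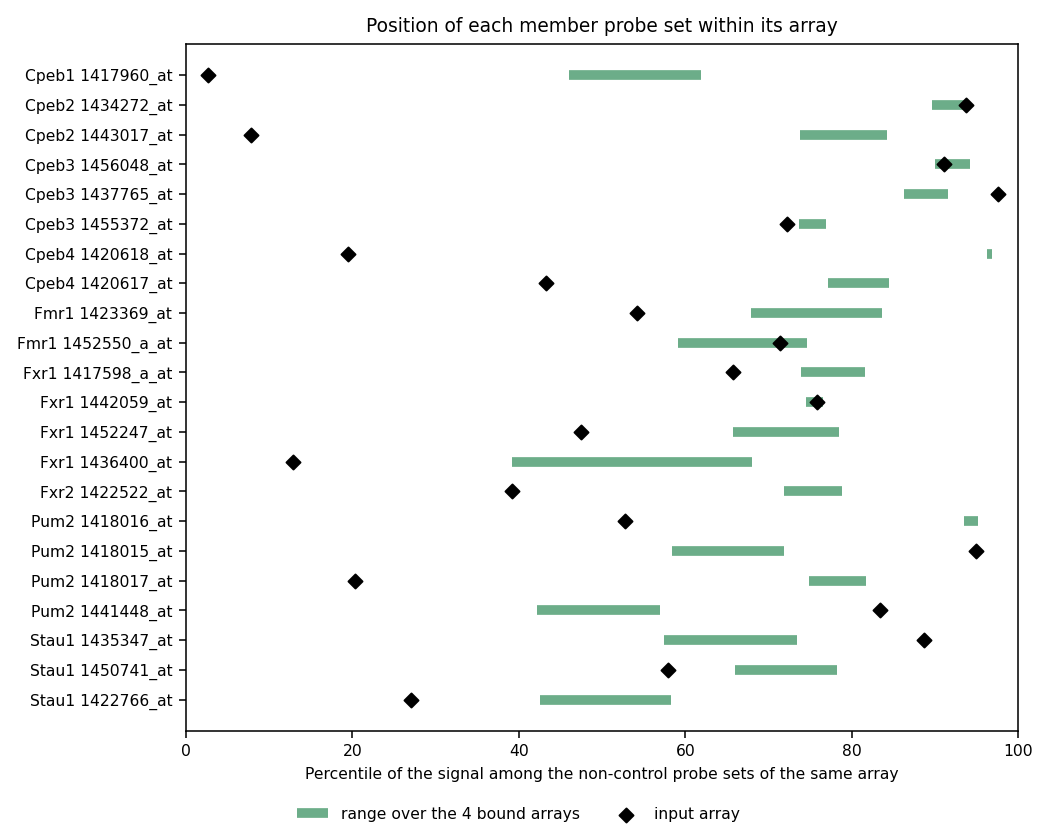
Percentile of each member probe set among the non-control probe sets of the same array: green bars span the 4 bound arrays and black diamonds mark the input array. The input diamond lies to the left of the bar for 14 of 22 probe sets and to the right for 5, among them 2 of Pum2 and 1 of Stau1.

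The 4 probe sets under the filter carried low signal on the bound arrays. Fmr1 1426086_a_at read 1.14 and 1.59 with the deiminated protein, 2.66 and 4.04 with the non-deiminated one and 92.0 on input, so the bound values lay below the pseudocount. Cpeb2 1458518_at read 1.37 and 2.50 against 7.83 and 17.8, with 4.36 on input. Cpeb3 1445868_at read 18.4 and 6.07 against 20.9 and 28.6, with 80.4 on input. Cpeb4 1449931_at read 2.48 to 32.1 on the bound arrays and 4.07 on input. The bound groups did not overlap for Fmr1 1426086_a_at, Cpeb2 1458518_at and Cpeb3 1445868_at, each lower with the deiminated protein, and overlapped for Cpeb4 1449931_at. The share without overlap among all probe sets under the filter was not computed. The mean log2 signal of all 4 was under the 40th percentile, so the tests above do not include them. In the fit with no filter Fmr1 1426086_a_at was called lower against input with both proteins (-4.12 and -3.68, adjusted p = 0.00091 and 0.0019), and the other 3 were not called in any comparison. For deiminated minus non-deiminated, Cpeb2 1458518_at stood at -1.42 in that limma fit (-2.58 to -0.25, unadjusted p = 0.021, adjusted p = 0.9999). There 923 of all 45037 probe sets had an unadjusted p under 0.05.

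Other genes of the pathway came from lists of partners and of known target transcripts. Of 60 granule and translation control partners, 54 were measured, and 0 were called between deiminated and non-deiminated protein, with a median of -0.0004. Against input, 28 were called higher and 8 lower with the deiminated protein (51.9% and 14.8%, beside 24.9% and 26.6% of all probe sets), and 27 and 10 with the non-deiminated protein (50.0% and 18.5%, beside 24.7% and 25.7%). Each gene was represented by its brightest kept probe set, while the shares of all count every kept probe set, so they are not like for like. Over all probe sets the median difference with the deiminated protein was -0.21 with the main filter and 0.29 with the 60th percentile filter. The part of signal level in the higher share of the partners was not tested. Under the authors' scaling the higher ones included Khdrbs1, which encodes the RNA-binding protein Sam68, with 1657 to 1903 on the bound arrays and 79.1 on input (4.39 and 4.46). The kinesin motor Kif5a, which carries neuronal granules, had 5.02 and 4.55, and the FMRP interactor Nufip2 had 3.51 and 2.92. Tob1, which recruits deadenylases, had 3.06 and 2.86, the poly(A)-binding protein Pabpc1 had 3.02 and 3.08, and the granule protein Pura had 2.98 and 2.95. The lower ones included the initiation inhibitor Eif4ebp2 (-2.16 and -2.004), Nanos1, a partner of Pumilio proteins (-2.03 and -2.06), Nufip1 (-2.86 and -2.96), Patl2 (-2.44 and -1.97) and Igf2bp3 (-3.01 and -2.78). After median centring 37 and 38 partners were called higher and 0 lower, beside 44.8% and 43.4% of all called higher and 4.83% and 4.54% lower. After quantile normalisation 30 and 28 were called higher and 12 and 11 lower, beside 36.8% and 36.3% of all called higher and 19.5% and 19.2% lower. Scaled to the hybridisation controls, limma called none of the partners or of all probe sets against input.

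Of 30 transcripts known as targets of these regulators, 26 were measured, and 0 were called between deiminated and non-deiminated protein, with a median of 0.01. Against input 12 were called higher with either protein and 3 and 2 lower (46.2% higher with each, and 11.5% and 7.7% lower). Here too each gene was represented by its brightest kept probe set, so these shares and those of all probe sets are not like for like. After quantile normalisation 15 and 16 were called higher and 4 and 5 lower, after median centring 21 and 21 higher and 1 and 1 lower, and after hybridisation control scaling 0 in either direction. The shares of all probe sets called higher are 24.9% and 24.7% under the authors' scaling, 36.8% and 36.3% after quantile normalisation and 44.8% and 43.4% after median centring, and those called lower are 26.6% and 25.7%, 19.5% and 19.2%, and 4.83% and 4.54%. Under the authors' scaling the higher ones included the G protein regulator Rgs4 (4.15 and 4.13), the FMRP target Map1b (3.76 and 3.99), the potassium channel Kcnd2 (3.21 and 3.004) and the glutamate receptor subunit Gria1 (2.70 and 2.70). Lower were the NMDA receptor subunit Grin2b, with 147 to 420 on the bound arrays and 9178 on input (-5.03 and -5.20), and Dlg4, which encodes PSD-95 (-1.81 and -1.62). The Grin2b probe set was chosen by its mean signal over all 5 arrays, which its input value dominates. Shank3 was lower with the deiminated protein at -1.22 (adjusted p = 0.0180) and did not pass with the non-deiminated protein at -0.96 (adjusted p = 0.0508). Camk2a, the classical dendritic mRNA, read 1894 to 4094 on the bound arrays and 5949 on input and did not pass (-1.02 and -1.20). These levels of bound RNA against input rest on the same lone input array.

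Over the 5 arrays, the probe sets with the profile most like the median of the 9 member genes were those of Cbll1, Brd9, Klhl12, Snrpb2 and Plpbp. Their root mean square difference from it, in log2 signal centred on each probe set's own mean, was 0.14 to 0.15 among 22351 candidates. The members themselves lay 0.29 (Fxr2) to 2.07 (Cpeb4) from that median, so the 9 genes did not share 1 profile.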

How the data were processed

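RNA was measured on 5 arrays, grouped by their descriptions as deiminated (2), non-deiminated (2) and input (1). Replicate numbers follow accession order and pair no arrays. The deposited values are signal intensities on a linear scale, made with MAS5 per the submitters' processing notes (no version was found). The authors had scaled each array to a common level, which was checked by the mean after trimming 2% at each end. Genes were named through the array's annotation table, and for all 26 member probe sets the Entrez identifier gave the same symbol in RefSeq's table.

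From these values log2(signal + 4.18) was computed, the pseudocount being the median of all values (41.8) divided by 10. After 64 control probe sets were set aside, those whose log2 signal averaged over the 5 arrays reached the 40th percentile were tested, 27022 in all. Percentiles within an array ran over all 45037 non-control probe sets. One model of 3 group means was fitted with limma 3.58.1 in R 4.3.3 (lmFit, and eBayes with a trend), with 2 residual and 10.9 prior degrees of freedom and Benjamini-Hochberg adjustment over all kept probe sets. The model was also run on simulated data in which all 5 arrays shared 1 mean and spread per probe set. Changes were added to the deiminated arrays alone. That run does not bear on how the lone input array varies. Errors after ± are limma standard errors. Alternatives covered the pseudocount, filter, scaling between arrays (18 hybridisation control probe sets for the last of these), variance trend, the protein name as a block, a fit without the input array, and fits that omit 1 bound array; the set of kept probe sets changed only with the filter. The number of arrays limits the precision.

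All member probe sets are named. In the gene lists each gene was represented by its brightest kept probe set on average, and up to 4 called members per direction and comparison with the largest moderated t are named; Camk2a, which was not called, was named after its values were seen. The 5 probe sets nearest to the median profile are named. The members and lists were chosen with earlier results of these data known.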

Additional observations from a re-analysis of the deposited data

Results flagged for a closer look

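For Fxr1 1452247_at both deiminated arrays (101 and 168) lay above the input array (90.8) and both non-deiminated arrays (86.5 and 81.9) lay below it. The difference between the bound groups, 0.6065 on the log2 scale, was itself tested and did not pass in limma (adjusted p = 0.9999), and after quantile normalisation, median centring and hybridisation control scaling the non-deiminated arrays had more signal than input (1.24, 1.31 and 4.45).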

How the results depend on the processing

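For deiminated against non-deiminated, limma called 0 member probe sets under every alternative run, and 0 of all probe sets became up to 24 on omitting 1 bound array (lowest 0, highest 24, reached without non-deiminated replicate 1). The sign of the log2 difference turned after median centring for Cpeb3 1456048_at (0.0046), Cpeb4 1420618_at (0.0029) and Fxr1 1442059_at (0.0019), and after hybridisation control scaling for Pum2 1418017_at (-0.013). Leaving out 1 bound array at a time gave ranges that include 0 for Cpeb1 1417960_at (-0.059 to 0.42), Cpeb2 1434272_at (-0.63 to 0.23) and 1443017_at (-0.76 to 0.12), Cpeb3 1456048_at (-0.49 to 0.34) and 1437765_at (-0.45 to 0.26), and Cpeb4 1420618_at (-0.20 to 0.046) and 1420617_at (-0.17 to 0.51). The same held for Fmr1 1423369_at (-0.53 to 0.90) and 1452550_a_at (-0.62 to 0.75), Fxr1 1417598_a_at (-0.25 to 0.47), 1442059_at (-0.19 to 0.040) and 1436400_at (-0.61 to 0.85), Fxr2 1422522_at (-0.026 to 0.51), Pum2 1418016_at (-0.37 to 0.21) and 1418017_at (-0.28 to 0.33), and Stau1 1435347_at (-0.21 to 0.78) and 1450741_at (-0.88 to 0.26).

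For the comparisons with input, 4 of the 6 higher calls with each protein held under all alternatives other than hybridisation control scaling: Cpeb2 1443017_at, Cpeb4 1420618_at, Pum2 1418016_at and 1418017_at. Of the 4 lower calls, 2 did so with the deiminated and 0 with the non-deiminated protein. Over all probe sets, limma called 13925 with the deiminated protein, 21261 with no filter (more probe sets were tested), 0 after hybridisation control scaling, and between 9226 and 16695 on omitting 1 bound array, the lowest without deiminated replicate 1. With the non-deiminated protein it called 13635, and 0 after hybridisation control scaling. The median difference from input over all probe sets also moved with the filter. With the deiminated protein it was -0.96 with no filter, -0.21 with the main filter and 0.29 with the 60th percentile filter. Cpeb1 1417960_at, Cpeb2 1443017_at, Cpeb4 1420618_at, Fxr1 1436400_at and Pum2 1418017_at passed through the bound arrays. Their log2 signal on input was 3.31 to 4.53, under the filter cut of 4.89. All of them but Fxr1 1436400_at were called higher, and those calls are not independent of the filter. Of the higher calls that held, only Pum2 1418016_at had input signal above the cut. Member calls higher were 10 and 11 (deiminated, then non-deiminated) after quantile normalisation (36.8% and 36.3% of all probe sets), 11 and 11 after median centring (44.8% and 43.4% of all) and 0 and 0 after hybridisation control scaling; calls lower were 2 and 0 after median centring (4.83% and 4.54% of all) and 0 and 0 after hybridisation control scaling.

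With the deiminated protein, signs against input turned after quantile normalisation for Cpeb2 1434272_at (-0.39), Cpeb3 1455372_at (0.35) and Stau1 1450741_at (0.70), and after median centring for Cpeb3 1437765_at (0.24) and 1455372_at (0.99), Fmr1 1452550_a_at (0.28), Fxr1 1442059_at (0.72) and Stau1 1450741_at (0.84). After hybridisation control scaling they turned for Cpeb3 1437765_at (4.06) and 1455372_at (4.44), Fmr1 1452550_a_at (3.72), Fxr1 1442059_at (4.21), Pum2 1418015_at (1.92) and 1441448_at (1.67), and Stau1 1435347_at (3.35) and 1450741_at (4.10). With the non-deiminated protein they turned after quantile normalisation for Cpeb2 1434272_at (-0.20), Cpeb3 1455372_at (0.15), Fxr1 1417598_a_at (0.92) and 1452247_at (1.24), and Stau1 1450741_at (0.98). After median centring they turned for Cpeb3 1437765_at (0.25) and 1455372_at (0.70), Fmr1 1452550_a_at (0.14), Fxr1 1417598_a_at (1.34), 1442059_at (0.72) and 1452247_at (1.31), and Stau1 1450741_at (1.07). After hybridisation control scaling they turned for Cpeb3 1437765_at (4.19) and 1455372_at (4.27), Fmr1 1452550_a_at (3.67), Fxr1 1417598_a_at (4.84), 1442059_at (4.32) and 1452247_at (4.45), Pum2 1418015_at (2.68) and 1441448_at (2.40), and Stau1 1435347_at (3.11) and 1450741_at (4.45). Leaving out 1 bound array at a time turned Cpeb2 1434272_at (-0.12 to 0.75) and Fxr1 1417598_a_at (-0.010 to 0.075) with the deiminated protein, and Fmr1 1423369_at (-0.43 to 0.99), Stau1 1450741_at (-0.92 to 0.22) and Fxr1 1417598_a_at (-0.44 to 0.29) with the non-deiminated protein. The cause of these turns was not tested. The labels give the groups no shared replicate numbers; a fit that pairs the bound arrays by the protein name in their titles (as a block) called 0 of 22 member probe sets and 0 of all, with 351 of all at an unadjusted p under 0.05. No pairing with the 1 input array can be made.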
